A study of Aspergillus nidulans with 8 samples.

Results

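Colonies of the filamentous fungus Aspergillus nidulans were followed as they aged on solid agar of the medium labelled CYAs. The description rests on the 3 arrays of that medium, 1 each of days 4, 8 and 10, out of 8 arrays in the series. All 11127 genes of the deposited gene table were taken, and 11109 had at least 1 probe well above background on 2 or more arrays. The other arrays, used here only for comparison, were 3 of the medium CYA (days 4, 8 and 10) and 2 of the medium YES (days 4 and 10), whose titles read YESs. The labels name no strain or genotype and do not spell out the media. All cultures were inoculated by stabbing the agar, kept at the same temperature in the dark, and whole colonies were scraped off as mycelium for total RNA, which was labelled with Cy3 and hybridised in 1 colour. Each array therefore averages the growing edge, the older centre and any spores or fruiting structures of its colonies. Fewer cells of a type and less RNA per cell cannot be told apart in such samples.

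A surface colony of A. nidulans begins as hyphae that take up sugars, nitrate and ammonium. As it matures it makes asexual spores (conidia) on conidiophores and later may form sexual fruiting bodies, which are nursed by thick-walled Hülle cells. Ageing colonies are also known for making secondary metabolites from genes that lie side by side in clusters, and for releasing hydrolases that break down polymers.

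A level is the log2 signal of a gene relative to the 75th percentile of its array, averaged over the probes of the gene (usually 3), so that a level of 0 lies at that percentile. A difference between days is a difference of levels. Its SD is taken over the probes of a gene, and it shows how well the probes of 1 pair of arrays match, not how far cultures vary. With 1 array a day no difference between days could be tested against replicates, and no label says whether cultures were pooled or repeated. A gene is counted as higher or lower when it differs at least 2-fold.

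The range of signals differed between the arrays, and that bears on every count given here. The signal at the 75th percentile came to 2707, 3114 and 1483 on days 4, 8 and 10, when 10878, 10998 and 11114 genes were well above background. The dim end of the day 10 array was drawn in, with a 5th percentile of levels at -5.89 against -7.86 on day 4 and -7.38 on day 8. CYA day 10, which shared slide 2 with the 3 CYAs arrays, had its 5th percentile at -6.46.

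Dim genes were accordingly higher on day 10 as a class. Among the 506 genes with a mean level under -7 the median difference of day 10 from day 4 was 2.28 and 97.0% were at least 2-fold higher. Over the 3200 genes between -3 and -1 the median was 0.07, and over the 1133 genes above 1 it was -0.11. After normexp background correction and quantile normalization the medians of the 6 level ranges lay between -0.07 and 0.07. Counts are therefore given both for all genes and for the 7202 genes with a mean level above -3, a limit chosen after seeing the data, and the difference after quantile normalization stands beside that of a named gene with a mean level of -3 or under where it passed 2-fold.

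**Figure D1:**
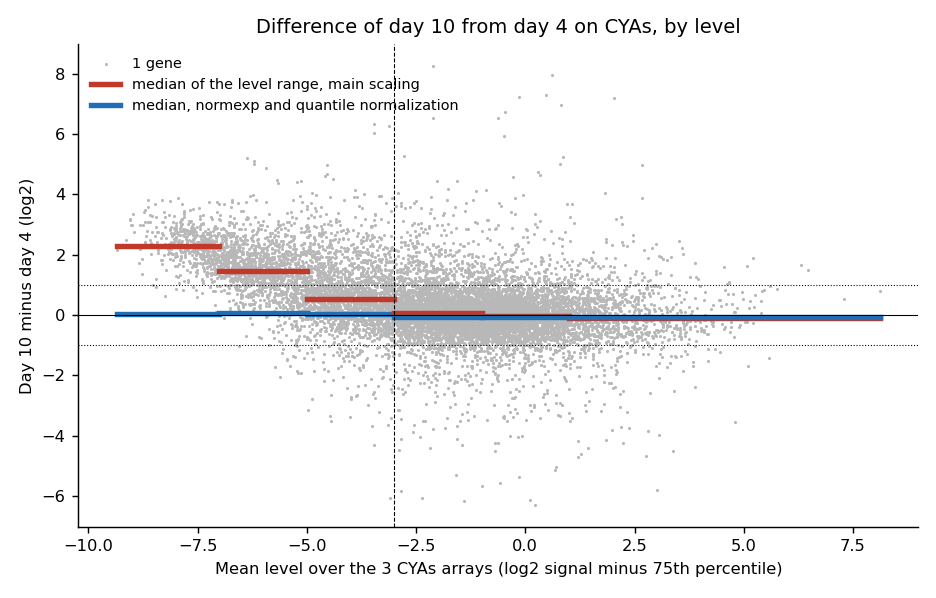
Difference of day 10 from day 4 on CYAs (log2, vertical axis) against the mean level over the 3 CYAs arrays (horizontal axis), 1 grey point per gene. Red bars are medians of 6 level ranges in the main scaling (2.28 at the dim end, -0.11 at the bright end), blue bars the same after normexp and quantile normalization; dotted lines mark a 2-fold difference and the dashed line the level of -3.

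The day 8 array also stood apart. Taking CYA day 8 as 1, the 180 genes that were brighter there by 16-fold or more than in both the youngest and the oldest CYAs colonies reached a median of 0.217 on CYAs day 8, with quartiles of 0.202 and 0.231. Their shares on CYAs day 4 (0.00949) and CYAs day 10 (0.0251) had to be low, since the genes were chosen that way. The share on CYAs day 8 was not part of the choice. Against YES day 10 the corresponding 193 genes had a median share of 0.213 with a wider spread (0.177 to 0.245). Whether the colonies of day 8 carried this signal or it entered the sample later was not tested. Day 10 against day 4 is therefore the main comparison, and counts that rest on day 8 are also given without the 563 genes (5.07% of those tested) whose CYA day 8 level exceeded both the CYAs day 4 and the CYAs day 10 level by 4-fold or more.

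Day 10 was compared with day 4 to describe what differs between an older and a younger colony. Of all genes 2866 were at least 2-fold higher on day 10 (25.8%) and 685 were lower (6.17%). Much of the excess of higher genes lay at the dim end, since 2093 of the 2866 had a mean level of -3 or under. After quantile normalization 793 genes (7.14%) were higher and 625 (5.63%) lower, and the authors' deposited table gave 902 higher and 717 lower. The share of higher genes among those past 2-fold thus went from 80.7% to 55.9% and 55.7%. Among the 7202 brighter genes 773 were higher (10.7%) and 564 lower (7.83%), and their median difference was 0.00. The probes of a gene gave similar differences, with a median SD of 0.17 over all genes with more than 1 probe and 0.13 over the brighter ones.

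The largest differences were found in genes without a symbol in the reference annotation. AN5463 stood at -6.94 on day 4, -0.72 on day 8 and 1.32 on day 10, a difference of 8.26 (SD over 3 probes 1.24), which was 5.81 after quantile normalization. AN1799 went from -3.56 through 1.24 to 3.73, AN3388 from -4.11 through 0.59 to 3.11 and AN0567 from -2.87 through 1.27 to 4.08. These 3 genes were 156-fold, 149-fold and 124-fold higher on day 10 than on day 4, with SDs over probes of 0.23 to 0.28. On CYA the same 3 genes differed by 0.96 to 1.15 and on YES by 0.31 to 0.99 between days 4 and 10. At the other end AN4135 stood at 2.96, 1.04 and -3.32, AN2099 at 1.41, -0.85 and -4.74, and AN7378 at 3.22, 0.03 and -2.91. Their day 10 levels were 78.0-fold, 71.0-fold and 70.1-fold lower. These 3 genes were also lower on day 10 on CYA (-4.48 to -6.70) and on YES (-3.01 to -6.20). AN2099 differed by less there (-4.48 on CYA and -3.01 on YES) than on CYAs (-6.15). AN7349, the second largest upward difference (7.94), was higher by 7.94 on CYA and by 5.93 on YES.

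Genes of nitrate use were much lower in the oldest colony. The nitrate reductase gene niaD stood at -0.49 on day 4, -1.71 on day 8 and -6.33 on day 10. The nitrite reductase gene niiA stood at -1.18, -1.89 and -5.63, and the nitrate transporter gene crnA at -1.32, -3.17 and -4.72. Day 4 was the highest and day 10 the lowest of the 3 days for each of them. The differences of day 10 from day 4 were -5.84 for niaD (57.1-fold, SD over 3 probes 2.01, and -4.38 after quantile normalization), -4.46 for niiA (SD 0.58) and -3.40 for crnA (SD 1.44, and -2.87 after quantile normalization). The level of niaD on day 10 lay under the 5th percentile of that array, where signals were drawn in. The flavohaemoglobin gene fhpA, whose product detoxifies nitric oxide, stood at 1.28, -0.14 and -3.21, a difference of -4.49 (SD 0.11). The activator genes nirA and areA did not follow their targets in size. The pathway activator gene nirA stood at 0.02, -0.13 and 0.22, and areA, the global activator of nitrogen use, at -2.40, -2.10 and -2.52.

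Over the 9 genes listed for nitrate assimilation and its control, 4 were lower, 1 (AN8168, 1.66) was higher and 4 lay within 2-fold, with a median of -0.94 against 0.26 over all genes. Among the 15 listed genes of ammonium, proline, purine and amide use 7 were lower and 1 was higher (median -0.89). AN1181 stood at 1.45, 0.63 and -2.03, AN7463 at 0.01, -1.10 and -3.28, and AN4376 at 3.65, 2.89 and 0.46. All 3 were thus about 10-fold lower at the end, by 3.48, 3.29 and 3.19 on the log2 scale. The glutamine synthetase gene glnA went the other way without reaching 2-fold, at 3.70, 4.16 and 4.48. In the proline cluster prnC differed by 0.75 and prnB by -1.06. The proline oxidase gene prnD was brightest on day 8 (-2.91, -0.70 and -3.80), where it held a share of 0.23 of the CYA day 8 signal.

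Genes of glycolysis and of gluconeogenesis were counted separately, and 6 of the former were lower and 4 of the latter higher. Of 11 glycolysis genes 6 were at least 2-fold lower and 0 higher, and the median was -1.11. The glyceraldehyde-3-phosphate dehydrogenase gene gpdA stood at 3.27, 2.82 and 1.98 (difference -1.29, SD over 3 probes 0.19), and the phosphoglycerate kinase gene pgkA at 4.24, 3.61 and 2.87 (-1.37, SD 0.17). The remaining 5 members, which lay within 2-fold, ranged from -0.87 to -0.06. Every one of the 11 genes therefore had its day 10 level below that of day 4. The phosphoenolpyruvate carboxykinase gene acuF, which opens gluconeogenesis, stood at 1.03, 2.34 and 3.37, 5.06-fold higher on day 10 (2.34, SD 0.04). Of the 10 genes of gluconeogenesis and the glyoxylate cycle 4 were higher and 0 lower, with a median of 0.69, and 3 were higher after quantile normalization. The background of higher genes was 25.8%, as given above. AN5634 stood at 0.34, 1.32 and 2.07, and AN5626 differed by 1.27. The fructose-1,6-bisphosphatase gene fbp1 and the acetate regulator gene facB lay within 2-fold, at 0.63 and 0.58. All 10 members had a positive difference (0.21 to 2.34), and acuF differed by 2.23 on CYA and by -0.12 on YES.

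Genes of ethanol and acetaldehyde metabolism separated into opposite groups. AN4888 was among the brightest genes of the young colony, at 5.28 on day 4 and 4.08 on day 8, and stood at 0.76 on day 10, a 22.9-fold difference (-4.52, SD over 3 probes 0.17). AN2286 stood at 4.53, 3.24 and 0.67 (-3.85, SD 0.29). The other 4 listed members were higher by 0.94 to 2.28, and AN3741, at -0.32, 0.85 and 1.96, differed most among them. The list median of 0.96 therefore hides a split of 2 genes lower, 2 higher and 2 just inside 2-fold. The gene aclA, for a subunit of ATP citrate lyase, which supplies cytosolic acetyl-CoA, stood at 3.25, 1.89 and 0.07 (-3.18, SD 0.30). Trehalose and mannitol genes all stayed within 2-fold (5 of 5, median 0.20), the trehalase gene treA at -0.32, 0.56 and 0.55 being the farthest from level.

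**Figure D2:**
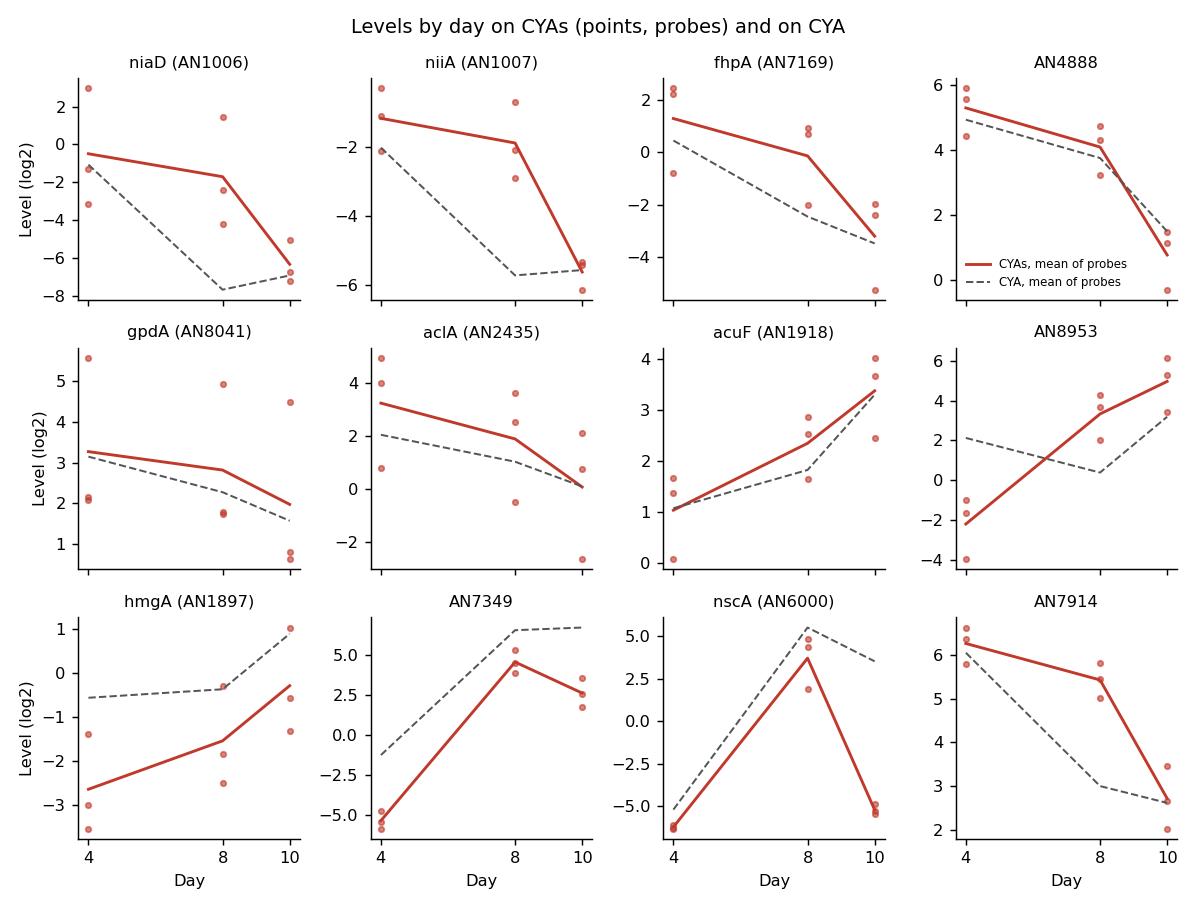
Levels (log2 relative to the 75th percentile, vertical axes, each with its own range) by day for 12 genes on CYAs, with 1 red point per probe and a red line through the mean, and the mean on CYA as a dashed line. niaD, niiA, fhpA, AN4888, gpdA, aclA and AN7914 end lowest on day 10, acuF, AN8953 and hmgA end highest, and AN7349 and nscA are highest on day 8; the probes of a gene sit at different heights, and those of niaD (SD of the difference 2.01) are closer together on day 10 than on day 4.

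Genes for breaking down plant polymers were higher on day 10 in a minority of cases once dim signals were set aside. Of 14 listed genes 9 were higher and 1 lower, with a median of 1.15, but after quantile normalization 4 were higher, 1 was lower and the median was 0.17. The largest difference was that of AN8953, at -2.21, 3.33 and 4.97, which was 145-fold (7.18, SD over 3 probes 0.24) and stayed at 6.48 after quantile normalization. AN2017 stood at 2.35, 3.22 and 4.19 (1.84), AN2016 at -4.71, -3.22 and -2.27 (2.44, or 1.51 after quantile normalization), and AN3402 at -7.13, -2.45 and -0.81 (6.32, with an SD over probes of 2.84, or 3.70 after quantile normalization). These 4 genes were higher on day 8 than on day 4 and higher again on day 10. AN8953 differed by 1.07 on CYA and by -3.07 on YES. The exception was AN9365, at 1.05, -0.11 and -1.70 (-2.75, SD 0.17). The xylanase regulator gene xlnR (-4.71, -4.17 and -3.52) reached 1.19, and 0.42 after quantile normalization.

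Of the 10 largest upward differences among genes with a symbol, faeB-2 and rglA were the enzymes of plant polymers that stayed past 2-fold after quantile normalization. The feruloyl esterase gene faeB-2 stood at -3.25, -1.85 and -0.24 (3.01, SD over 3 probes 0.10). The rhamnogalacturonan lyase gene rglA stood at -3.97, -1.91 and -1.67 (2.30, SD 0.28) and the cellobiohydrolase gene cbhC at -5.77, -3.51 and -3.64 (2.14, SD 0.88). For cbhC the day 8 level was no lower than that of day 10, and its difference of day 10 from day 4 was 0.90 after quantile normalization. The pectin methylesterase gene pmeA stood at -0.30, -2.66 and -6.35 (66.3-fold lower, SD 0.22, and -4.49 after quantile normalization). The hexose transporter gene hxt8 stood at -2.94, -1.49 and -0.55 (2.39, SD 0.17). The dim genes of this top 10, pyr2 (2.36), abfI (2.19) and MAT2 (2.11), were at 0.27, 0.07 and 0.71 after quantile normalization.

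The 3 neighbouring genes for the last steps of tyrosine and phenylalanine breakdown were higher together. The homogentisate dioxygenase gene hmgA stood at -2.65, -1.54 and -0.28 (2.37, SD over 3 probes 0.12). The fumarylacetoacetate hydrolase gene fahA differed by 2.12 (1.06 after quantile normalization) and the maleylacetoacetate isomerase gene maiA, picked after its values were seen, by 1.80. Their day 8 levels lay between those of days 4 and 10 in all 3 cases. The next genes in order, hmgX and AN1899, differed by 1.25 and 1.33, and by 0.53 and 0.80, under 2-fold, after quantile normalization.

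**Figure D3:**
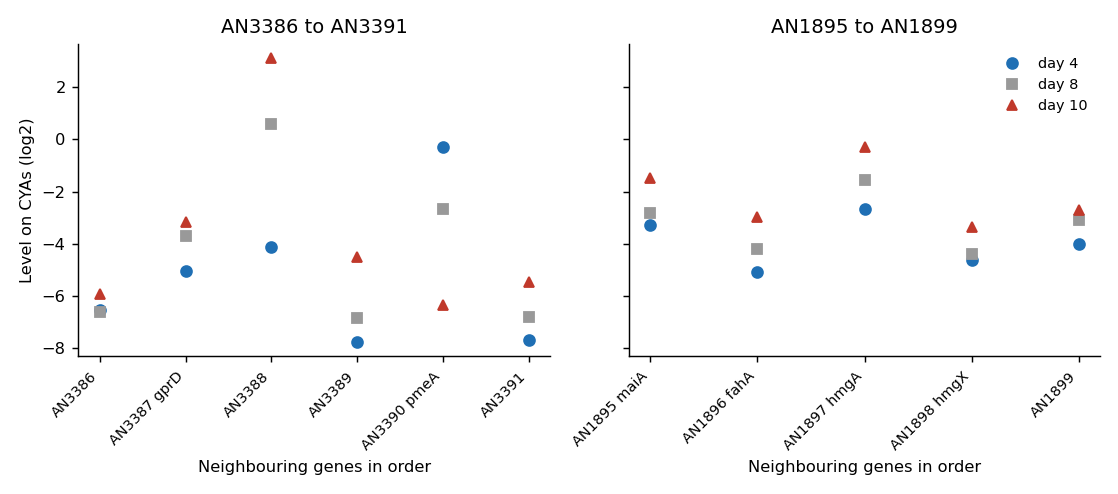
Levels on CYAs (log2 relative to the 75th percentile, vertical axes) by day for neighbouring genes in reference order, AN3386 to AN3391 and AN1895 to AN1899, each point the mean of the probes of 1 gene on 1 array. In the first stretch AN3388 ends at 3.11 and pmeA at -6.35 on day 10, and in the other maiA, fahA and hmgA all end above their day 4 levels.

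Hydrolases of the fungal wall and of autolysis did not move one way. Of 7 listed genes 3 were higher and 2 lower (median 0.57). AN1502 stood at -1.51, 0.14 and 0.53 (2.04) and the metalloprotease gene mep20 at -3.04, -1.67 and -1.50 (1.53), whereas the chitinase gene chiA1 stood at -1.79, -2.76 and -3.43 (-1.64). AN5558 was brightest on day 8 (1.40, 3.22 and 0.06). Day 8 shares of the CYA day 8 signal were 0.15 to 0.32 for AN1502, mep20, AN5558, AN4871 and AN0472, beside the median of 0.217 given above. Wall synthases stayed within 2-fold in 9 of 10 cases, among them the chitin synthase genes chsA (0.84), chsB (-0.72) and chsG (0.00). The α-glucan synthase gene ags1 stood at -3.19, -4.34 and -5.82 (-2.64, SD 1.49, and -2.08 after quantile normalization). The genes agd3 and gtb3, which in Aspergillus fumigatus belong to the cluster for the wall polymer galactosaminogalactan, stood at 0.96, 0.48 and -2.15 and at -0.98, -2.15 and -3.06.

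Secondary metabolite clusters parted into lower, level and higher groups. All 6 genes of the aspernidine list were lower on day 10, with a median of -3.26. They were as bright on day 8 as on day 4: AN3230 stood at 2.79, 2.87 and -1.83 (24.4-fold, SD over 3 probes 0.10) and AN3225 at 1.20, 1.13 and -1.98. The day 8 levels of these genes were 12.9 to 490 times those of CYA day 8. All 5 genes of the orsellinic acid list were lower too (median -2.62). AN7914 was the brightest of them at 6.27, 5.43 and 2.71 (11.8-fold, SD 0.34), and AN7912 stood at 2.75, 1.71 and -2.39 (35.4-fold, SD 0.31).

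Most genes of the aspercryptin, dba, emericellamide and pimaradiene lists were lower as well. Of 11 aspercryptin genes 9 were lower (median -2.11), and AN7876 went from -0.05 through -2.04 to -4.45. Of 11 genes of the cluster for a derivative of benzaldehyde (dba) 9 were lower (median -2.57), AN7895 standing at 0.81, 1.07 and -4.84. The probes of the dba genes disagreed, with SDs of up to 3.11. In the emericellamide list 3 of 4 genes were lower (AN2547 at 2.98, 2.15 and 0.73), and in the pimaradiene list 5 of 8 (AN1596 at 2.32, 0.61 and -0.58). In the next lists most genes lay within 2-fold. Monodictyphenone genes were lower in 4 of 12 cases with a median of -0.73, AN0146 standing at 3.64, 2.45 and 2.36. In the cichorine list 2 of 7 genes were lower (tpcA, -1.84, and AN6448, -1.71), and in the microperfuranone list 1 of 3 (AN3396, -2.95).

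Most sterigmatocystin and austinol genes lay within 2-fold between days 4 and 10, but fewer of them did on day 8. Of 21 sterigmatocystin genes 17 lay within 2-fold between days 4 and 10 and 4 were higher, with a median of 0.43. AN7825 stood at 2.91, 4.19 and 4.17 (1.26, SD over 3 probes 0.13) and AN7806 at 3.68, 3.97 and 3.23. On day 8 against day 4 the sterigmatocystin list had 9 genes higher and 0 lower (median 0.81). The list had a median difference of -4.83 on CYA and of -4.66 on YES. Of 16 austinol genes 15 lay within 2-fold (median -0.19), and the remaining 1, AN9254, was dim, at -6.59, -7.69 and -5.31, with a difference of 1.28 that was 0.01 after quantile normalization. On day 8 against day 4 the austinol list had 6 genes lower and 0 higher (median -0.94).

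Penicillin genes were the brightest case of a cluster that was higher on day 10. AN2622 stood at -2.55, -2.96 and -0.41 (2.14, SD over 3 probes 0.24) and AN2623 at -3.85, -3.07 and -0.88 (2.97, SD 0.20). Both were still at 1.71 and 2.26 after quantile normalization, and both differed little between days 4 and 8. The third gene, AN2621, was dim throughout (-8.02, -7.97 and -5.59), and its difference of 2.43 was 0.14 after quantile normalization. Terrequinone genes (2 of 3 higher) were dim as well, and 0 of 3 passed 2-fold after quantile normalization. The 8 quinolone genes had day 10 levels of -6.18 to -4.29. All 8 were counted as higher (median 2.20), yet the median was 0.09 and 0 of 8 were higher after quantile normalization. On day 8 against day 4 all 8 were higher too, with a median of 3.69 in the main scaling. AN9227 stood at -8.57, -2.11 and -5.31. Day 8 shares of the CYA day 8 signal were 0.26 to 0.41 for AN9226, AN9227, AN9231 and AN9232. The 3 asperthecin genes were high on day 8 only: nscA stood at -6.22, 3.71 and -5.21, nscB at -2.20, 2.38 and -1.38, and nscC at -3.56, -0.05 and -3.57. Their day 8 shares of the CYA day 8 signal were 0.29, 0.23 and 0.22, beside the median share of 0.217 given above.

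**Figure D4:**
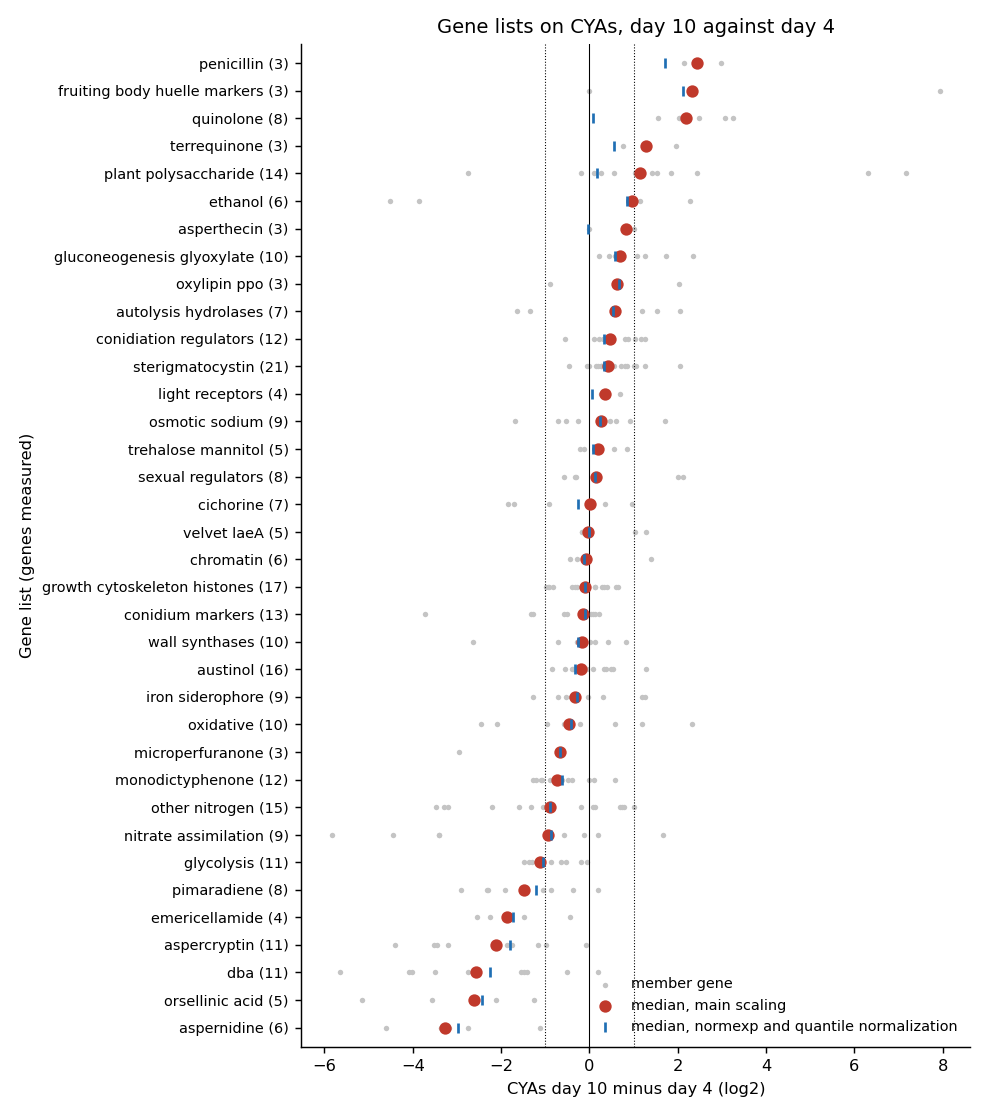
Difference of day 10 from day 4 on CYAs (log2, horizontal axis) for 36 gene lists (vertical axis, with the number of genes measured), with grey points for member genes, red points for list medians and blue ticks for medians after normexp and quantile normalization. Dotted lines mark a 2-fold difference. Medians in the main scaling run from -3.26 for aspernidine to 2.43 for penicillin, the latter being the value of the dim AN2621. Under quantile normalization the penicillin median moves to 1.71, below the 2.12 of the fruiting body and Hülle cell list. The quinolone median moves from 2.20 to 0.09.

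Runs of 3 or more neighbouring genes that differed at least 4-fold in 1 direction were searched for over all genes, of which 9.83% were 4-fold higher and 1.92% 4-fold lower. There were 7 lower runs with 23 genes and 4 higher runs with 13 genes. After quantile normalization every gene of a run still differed at least 4-fold in 5 of the 7 lower runs and in 1 of the 4 higher runs. The lower runs lay in the aspercryptin, dba, orsellinic acid, aspernidine and pimaradiene lists or beside them. Among the higher runs AN1814, AN1815 and AN1816 differed by 2.76, 2.74 (1.65 after quantile normalization) and 3.87, AN1816 standing at 0.64, 2.89 and 4.50. AN3291, AN3290 and AN10403 differed by 2.72, 2.22 (1.23 after quantile normalization) and 2.74. The run of AN7346, AN7345, AN7344 and AN7343 differed by 3.37 to 6.53, and its day 8 shares of the CYA day 8 signal were 0.19 to 0.29.

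Markers of asexual spores, which the label mycelium does not name, were measured above background on all 3 days. All 13 markers of conidia and conidiophores had every probe well above background on each day. With levels taken off the log2 scale and summed over genes, they made up 0.768%, 0.471% and 0.671% on days 4, 8 and 10. Their levels ran from -2.55 to 4.30 on day 4 and from -3.58 to 4.18 on day 10. The hydrophobin genes rodA (4.30, 3.43 and 4.15) and dewA (3.63, 3.07 and 3.71) and the spore pigment gene yA (-1.73, -2.27 and -1.60) were within 0.15 of their day 4 levels on day 10. The spore pigment synthase gene pksP stood at 3.42, 2.70 and 2.92. Of the 13 markers 10 lay within 2-fold between days 4 and 10 and 3 were lower, with a median of -0.14. The lower ones were AN7539 (0.15, -2.09 and -3.58), AN6401 (-1.31) and the conidiophore pigment gene ivoB (-1.28). The same list had a median of -1.61 on CYA and -3.15 on YES. The spore markers were lower on day 8 than on both other days in several cases, by 0.72 to 0.87 for rodA, and rodA and the conidial wall gene ccpA (0.45, -0.33 and 0.44) were among the 4 genes with a symbol that dipped most on day 8.

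Regulators of spore formation differed little. Of 12 genes 3 were higher and 0 lower (median 0.46), and after quantile normalization 1 was higher. The central regulators stood at -2.76, -3.45 and -3.32 for brlA, -4.25, -4.68 and -3.37 for abaA, and -3.67, -3.45 and -2.42 for wetA. Only wetA passed 2-fold among these 3, at 1.25, and it was at 0.64 after quantile normalization. The developmental modifier gene medA stood at -1.39, -1.11 and -0.24 (1.16).

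The markers of fruiting bodies and Hülle cells were higher after day 4 in 2 of 3 cases. AN7349 was 245-fold higher on day 10 than on day 4 (7.94, SD over 3 probes 0.34), at -5.33, 4.54 and 2.61, and its day 8 share of CYA day 8 was 0.25. AN7388 stood at 0.60, 2.41 and 2.91 (2.31, SD 0.13), while AN0901 was level at -2.83, -2.90 and -2.85. The 3 markers made up 0.0136%, 0.252% and 0.109% of the summed levels, again taken off the log2 scale. Their part in other differences was not tested. The mating-type genes MAT1 (-6.98, -4.58 and -4.97) and MAT2 (-6.25, -4.60 and -4.14) were the 2 of 8 sexual regulators counted as higher, and neither passed 2-fold after quantile normalization (0.36 for MAT1). The transcription factor genes nsdD and steA stayed within 0.31 of day 4. The velvet gene veA, which links light to development, stood at -0.44, -0.11 and 0.83 (1.27, SD 0.04), whereas velB and laeA differed by -0.18 and -0.16. The 4 light receptor genes, in colonies kept in the dark, all stayed within 2-fold. In the chromatin list 1 of 6 genes was higher, the dim clrD (1.39, and 0.11 after quantile normalization). The oxygenase gene AN6320 of the list for oxylipin synthesis stood at -4.67, -3.53 and -2.64 (2.03, or 1.09 after quantile normalization).

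Stress and iron genes showed single members apart rather than a shared direction. In the osmotic list 1 of 9 was higher (AN6642 at 3.08, 3.76 and 4.80) and 1 lower (AN6792 at -1.24, -2.76 and -2.91), and the stress kinase gene sakA stood at 0.99, 1.29 and 1.24. The stress transcription factor gene atfA lay just inside 2-fold, at 2.13, 3.15 and 3.05. Among 10 oxidative stress genes 2 were higher and 2 lower, where 25.8% of all genes were higher and 6.17% lower. After quantile normalization 1 of the 10 was higher and 2 were lower. The catalase gene cat1 stood at 3.94, 3.42 and 1.85 (-2.09, with an SD over 3 probes of 1.41), the spore catalase gene catA at 3.14, 2.24 and 2.57, and the superoxide dismutase genes sod1 and sod2 at 5.22, 4.87 and 5.00 and at 3.64, 2.60 and 2.68. AN8692 differed by -2.45. In the iron list 2 of 9 were higher and 1 lower, and after quantile normalization 1 was higher and 1 lower. The gene sidC, for the synthetase of the intracellular siderophore, stood at -0.82, -0.23 and 0.45 (1.27), while the iron regulator genes hapX and sreA stayed within 0.32 of day 4.

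Many genes were level over the 6 days between the sampled ends. Of all 11109 genes tested 3520 (31.7%) stayed within 0.5 log2 units over all 3 days, and of the 7202 brighter genes 2994 (41.6%) did. The corresponding share on CYA was 20.1% of 7201 genes. Between days 4 and 10 alone, 81.4% of the brighter genes lay within 2-fold on CYAs and 78.1% of the same genes on CYA. The CYA arrays of days 4 and 8 were on slide 1 and that of day 10 on slide 2, so medium and slide cannot be told apart in this contrast, and with 1 array a day it had no test. The 8 most level genes with a symbol among those above the 75th percentile included the kinase gene pkcA (0.75, 0.73 and 0.78), the oxoglutarate dehydrogenase gene kgd1 (0.41, 0.39 and 0.42), the co-repressor gene rcoA (1.48, 1.41 and 1.46) and wos2 (3.77, 3.82 and 3.77). In the list of growth, cytoskeleton and histone genes 17 of 17 lay within 2-fold, with a median of -0.10. The histone gene hhtA stood at 4.13, 4.32 and 4.45. The actin gene act1, often used as a reference in such work together with gpdA, stood at 2.73, 2.47 and 1.80, a difference of -0.93 (SD over 3 probes 0.28), and the cyclin gene nimE differed by -0.82.

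The day 8 array was then set between the others to see how the differences were spread over time. Day 8 against day 4 had 1186 genes higher (10.7%) and 303 lower (2.73%), and without the 563 genes marked by CYA day 8 the first count was 709. Day 10 against day 8 had 1836 higher (16.5%) and 703 lower (6.33%), and without those genes 313 were lower. After quantile normalization the higher and lower counts of day 10 against day 8 were 319 and 617, so that the share of higher genes was 34.1% in place of 72.3%. In the authors' deposited table it was 38.7%. Without the 563 genes the quantile-normalized counts were 319 higher and 265 lower (54.6% higher), and for day 8 against day 4 they were 240 higher and 215 lower.

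Most genes with a large difference had their day 8 level between those of days 4 and 10. These genes were chosen on days 4 and 10, and a gene counted as between however small its step to day 8. Of the 178 brighter genes at least 4-fold lower on day 10 (2.47%), 167 had their day 8 level between the other days, and a median of 36.4% of the log2 difference had been reached by day 8. Without the 563 genes it was 167 of 176, with 36.8% reached. Of the 202 brighter genes at least 4-fold higher (2.8%), 182 had their day 8 level between, with 56.4% reached, and without the 563 genes 181 of 185, with 55.2% reached. Among the 94 of the 202 that were no more than 2-fold brighter on CYA day 8 than on CYAs day 4, 93 lay between and 50.0% was reached. The lower genes thus had their larger step after day 8 (medians of -1.17 to day 8 and -1.84 from day 8), and the aspernidine genes had all of theirs there.

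Almost every gene with a day 8 peak on CYAs was also bright on CYA day 8. The mark compares CYA day 8 with the same CYAs days 4 and 10 that define the peak. It does not ask whether the gene peaked on CYA. AN7349, for example, stood at 6.52 on CYA day 8 and at 6.69 on CYA day 10. In all, 355 genes stood at least 2-fold above both other days on day 8, and 349 of them (98.3%) were among the 563 genes marked by CYA day 8. Over the brighter genes there were 152 such peaks, and 5 without the marked genes. With a symbol the 4 largest were nscA, nscB, the chitin synthase gene chsD and ksrA (-1.56, 2.98 and -1.80), with shares of 0.23 to 0.29. Only 26 genes dipped at least 2-fold below both other days, and 3 of them were bright. Among 2573 brighter genes that were level between days 4 and 10, those 3 to 9 log2 units higher on CYA day 8 (40 genes) had a median excess of 1.93 on CYAs day 8. The 104 genes that were 2 to 9 units lower on CYA day 8 had a median of -0.32.

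**Figure D5:**
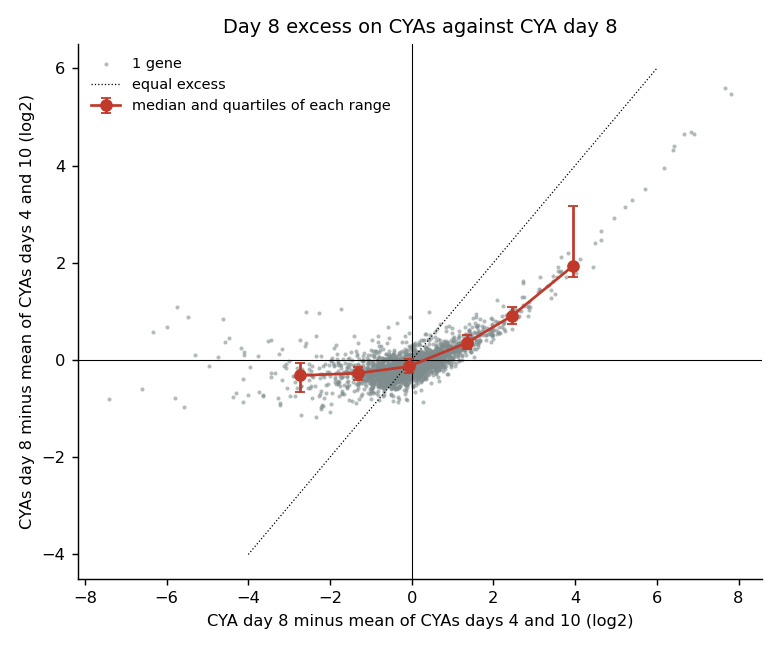
Excess of CYAs day 8 over the mean of CYAs days 4 and 10 (log2, vertical axis) against the excess of CYA day 8 over that same mean (log2, horizontal axis), 1 point per gene for the 2573 brighter genes within 0.3 log2 between CYAs days 4 and 10. Red points are medians with quartiles of 6 ranges, from -0.32 on the left to 1.93 on the right, and the dotted line marks equal excess.

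The large differences were set beside those of the other media over the same days. Of the 178 brighter genes at least 4-fold lower on CYAs, 144 were at least 2-fold lower on CYA, where 14% of the brighter genes were lower, and 135 on YES, where 16.9% were. Their median differences there were -2.56 and -2.32, and 1 and 4 genes were at least 2-fold the other way. Of the 202 higher genes 77 were also at least 2-fold higher on CYA (7.94% of the brighter genes were) and 85 on YES (11.7%). Their medians were 0.53 and 0.69, and 31 and 23 genes were at least 2-fold the other way. Genes lower in old CYAs colonies were thus lower on the other media in most cases, and those higher were so in fewer.

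The only test the design allowed was of a straight trend in days on CYAs, fitted by limma over all 8 arrays with a slope for each medium. Its error came from the departures of CYAs and CYA from straight lines, with 2 residual degrees of freedom. For AN8953 the trend over 6 days was 7.34 ± 1.45 (SE), for acuF 2.28 ± 0.63, for AN4888 -4.13 ± 1.23 and for niaD -5.26 ± 2.08. Limma called 0 of 11109 genes, with a smallest adjusted p of 0.652. An unadjusted limma p under 0.05 was found for 801 genes (659 higher and 142 lower). After quantile normalization it was found for 567 genes (270 higher and 297 lower), so the excess of higher genes depended on the scaling. Without any trend a share of about 0.05 of all genes would pass that limit. The difference of the CYAs trend from the mean trend of CYA and YES likewise gave 0 calls, with a smallest adjusted p of 0.9995 and 469 genes at an unadjusted p under 0.05. On simulated data with each gene's own residual spread the fit recovered 0% of genes given a trend of 6 log2 units. With a residual SD of 0.3 for all genes it recovered 96% of trends of 2 units and 100% of those of 6. For the difference from the other media 70% at 2 units were recovered. That setting also made the spread equal across genes, so it does not show the effect of a smaller spread alone. Since 0% was recovered at the spread of these arrays, the 0 calls do not show that levels were the same. The differences above therefore describe these colonies, and whether they recur in other cultures was not tested.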

How the data were processed

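Total RNA of colonies was hybridised to 1-colour Agilent arrays, 1 per medium and day, and samples were grouped by medium as the labels give it. Per the file headers, the intensity of each spot came from Agilent Feature Extraction 10.5.1.1; no source used here states the background correction behind its processed signal. A table of log2 values, 1 for each gene and array, was deposited by the authors. Limma and RMA appear in the submitters' processing notes, without version, role or order. Its scale was read as log2, and its centring and normalization stay unknown. It served as an alternative only.

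From the 34210 features, 32793 gene probes were used without control and outlier spots. For levels, the log2 processed signal was taken relative to the 75th percentile of its array and averaged over probes (3 for 10705 genes). No spot was saturated. Alternatives were normexp (offset 50) with quantile normalization, the deposited table, median scaling, probe medians, no filter, a 4-fold limit and, added after seeing the data, a floor at the 5th percentile of day 10 and brighter genes only. Normexp took the median spot signal, because the files used here hold no mean signal. The trend was fitted with limma 3.58.1 in R 4.3.3, with Benjamini-Hochberg adjustment and a threshold of 0.05, and was tested on simulated data. A slide term was 1 alternative, since the 3 CYAs arrays lay on 1 slide. The number of arrays limits the precision.

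The genes and the 36 gene lists (312 locus tags, 304 measured) were chosen with earlier results of these data known, and lists are described by counts and medians with no set test. Named were the 6 largest differences each way, the 10 largest each way among genes with a symbol, up to 4 members of each list with the largest difference, the 8 most level and the 4 most peaked or dipped on day 8 with a symbol, and synthase and regulator genes of described lists. The first groups were drawn from genes well above background in the higher array with all probes in 1 direction. Further list members, maiA, hmgX, AN1899, gtb3 and the genes in runs were chosen after their values were seen. Symbols came from the RefSeq table of assembly ASM1142v1, strain FGSC A4, which matched 10413 genes and gave 780 symbols; it also gave the order of neighbours. Roles of genes without a symbol are those of their list. No source used here names the build behind the probes, so no coordinates are printed.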

Additional observations from a re-analysis of the deposited data

Results flagged for a closer look

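The sterigmatocystin genes AN7811, AN7825 and AN7821 stood higher on CYAs days 8 and 10 than on day 4, while on CYA they stood lower on both later days. AN7811 differed by 2.05 on CYAs day 10 (1.03 after quantile normalization) and by 2.25 on day 8, against -4.41 and -5.43 on CYA. AN7825 differed by 1.26 and 1.28 on CYAs, against -5.07 and -6.36 on CYA. AN7821 differed by 1.01 and 1.30 on CYAs, against -4.49 and -6.37 on CYA. The opposite directions were not tested for single genes beyond the fit of trends, which called none.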

How the results depend on the processing

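Counts of genes at least 2-fold apart depended on the treatment of dim signals. Day 10 against day 4 gave 3551 genes, and 1418 after normexp and quantile normalization, 1619 in the authors' deposited table, 1305 at 4-fold, 2367 with levels floored and 1337 over brighter genes. Day 8 against day 4 gave 1489, and under the same alternatives 799, 930, 447 (4-fold) and 700 (brighter genes). Day 10 against day 8 gave 2539, and 936, 1122, 695, 1563 (floored) and 752. Median scaling, probe medians, no filter and, apart from the direction counts in the report, leaving out genes marked by CYA day 8 kept each total within 1.5 times. Of 36 list medians, median scaling turned the sign of 1 (cichorine, 0.01 to -0.09) and quantile normalization that of 2 (asperthecin, 0.82 to -0.04, and cichorine, to -0.27). Of 169 named genes they turned 4 and 7, and 8 were turned in the deposited table. Among those past 2-fold in the main scaling the sign turned for AN6000 (nscA), at -0.0406 after quantile normalization and -0.0013 in the deposited table, and AN9254 at -0.0278 in that table; the cause was not tested. Of the list medians 3 dropped under 2-fold after quantile normalization and 3 in the deposited table, and of the named genes 22 and 22. Of the 53 list members at least 2-fold higher on day 10, 25 stayed so after quantile normalization, and of the 74 lower ones 72 did. The trend and its difference from the other media had 0 calls under every alternative run, including a slide block and leaving out each array (0 to 0). Of these, the difference could not be estimated without a YES array, and without a CYA array the trend is the one of the slide block. The smallest adjusted p was 0.17, for the difference with a slide block. No paired analysis was possible because the labels carry no replicate numbers and there is 1 array per medium and day. Signal over background limits statements on genes near the dim end of day 10.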

Other observations

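AN3388 and pmeA (AN3390), which lie 2 places apart in the reference order, were among the largest differences in opposite directions. From day 4 to day 10 AN3388 was 149-fold higher and pmeA 66.3-fold lower. AN3389, between them, stood at -7.77, -6.83 and -4.52 and the receptor gene gprD on the other side of AN3388 at -5.04, -3.71 and -3.16. AN3389 differed by 3.25 (SD over 3 probes 1.65) and gprD by 1.88, but by 0.71 and 0.84, under 2-fold, after quantile normalization. These genes were picked after their values were seen.

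The formate dehydrogenase gene fdh was among the brightest genes of the old colony, at 4.35, 5.05 and 6.23 on days 4, 8 and 10. The sterol gene erg13 (0.87, 0.80 and -1.14) and the haem gene hem13 (0.22, -0.34 and -1.83) were both lower on day 10 by about 4-fold. They were also picked after their values were seen.

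As a measure of RNA quality, probes nearer the 5′ end were compared with those nearer the 3′ end in 4511 genes. The median difference relative to the mean of the gene over all arrays was -0.09, 0.04 and -0.08 on CYAs days 4, 8 and 10.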
